A study of Mus musculus with 13 samples.

Results

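Meiotic maturation of mouse oocytes in the absence of any mutation was followed in 6 of the 13 libraries of the series, chosen by stage and genotype label alone. Of these, 3 came from fully grown wild-type (WT) oocytes with an intact germinal vesicle (GV, the large nucleus of an oocyte arrested in prophase of meiosis I) and 3 from WT eggs arrested at metaphase II (MII). The other 7 libraries (3 GV and 4 MII) came from mice named Sirena1 Null, in which Cas9 removed the promoter of the oocyte long noncoding RNA Sirena1. They are used here to repeat the comparison in other libraries. They also entered the model behind the WT test, and so its filter, its scaling and each gene's estimate of spread.

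Each library was made from 25 cells of superovulated females. The strain is labelled C57BL6/J throughout, while the collection protocol names either C57Bl6/J or C57BL/6NCrl, and no age is given. GV oocytes were collected in M2 medium with 0.2 mM IBMX, a phosphodiesterase inhibitor that holds meiotic arrest, and eggs in M2 medium 12 to 14 h after injection of hCG, the hormone that triggers ovulation. Stage, collection medium and time in the hormone course therefore changed together and cannot be told apart. Replicates are numbered, but the labels do not say whether they came from separate females, so p-values measure the spread between these samples, which may be technical.

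A fully grown oocyte no longer transcribes its genome and lives on mRNA stored during growth. When meiosis resumes, CDK1 with cyclin B drives nuclear breakdown and spindle assembly, chosen dormant mRNAs receive longer poly(A) tails and are translated, and many other maternal mRNAs lose their tails and are degraded. The deadenylase CCR4-NOT with its adaptor BTG4, and the decapping enzymes, carry out much of this decay.

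The GV WT libraries held 36808560 to 41285507 counts each and the egg libraries 31072240 to 33686427, so the depths of the stages did not overlap and depth cannot be told apart from stage. A count of 3, taken as the limit of detection, was worth 0.0727 to 0.0965 CPM (counts scaled to the library's total). Levels below are CPM after TMM scaling, relative to the rest of the library and not corrected for transcript length. Renilla luciferase RNA was added to every sample, 0.2 pg each, but the table holds no line for it, so RNA per cell was not measured. Oocyte identity was checked with 12 oocyte markers, all of them detected at both stages; 5 fell, 4 of these by more than 2-fold (Zp2, Zp3, Dppa3 and Figla), and 0 rose. Gdf9 and Bmp15, growth factors secreted by the oocyte, stood at 3065 ± 76 and 2917 ± 98 CPM in GV oocytes (SD, n = 3) and at 2698 ± 258 and 3135 ± 223 CPM in eggs (n = 3).

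Maturation changed the level of many mRNAs, with small rises and much larger falls. By edgeR's quasi-likelihood test with Benjamini-Hochberg adjustment, 8609 of 20143 genes (42.7%) passed an adjusted p of 0.05. Of these, 4014 (19.9% of the genes tested) were higher and 4595 (22.8%) were lower in eggs. Rises were mostly under 2-fold. Genes called higher had a median log2 fold change of 0.47, and 220 of them (1.09% of genes tested) exceeded 2-fold, while genes called lower had a median of -1.35 and 2926 (14.5%) fell by more than 2-fold. Among the 10823 genes with at least 5 CPM at a WT stage, 3609 rose and 2697 fell, 71 and 1296 of them by more than 2-fold. Counts of list members given below should be read beside these shares. In 98.5% of calls the 3 libraries of one stage lay wholly above those of the other, a separation seen in 28.2% of all genes tested in the direction of eggs and in 30.1% in the direction of GV oocytes.

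The balance of directions depends on how libraries are scaled. TMM placed the median of all tested genes at 0.0053 (log2), and scaling to library totals moved it to -0.20. With library totals 1831 genes were higher and 5898 lower, so that 23.7% of calls were rises, against 46.6% with TMM. Small rises named below should be read against that shift of about 0.20, which lowers every log2 fold change by nearly the same amount. Both scalings are relative, so a rise is one relative to the rest of the library. RNA per cell was not measured, and 0.20 sets no limit on the shift per cell.

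**Figure D1:**
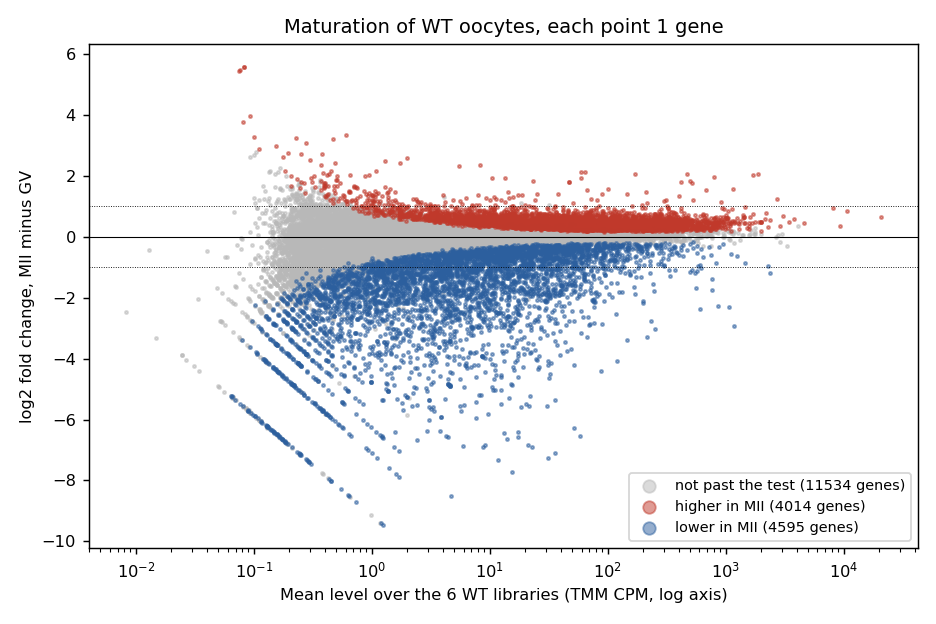
Each point is 1 of 20143 genes, placed by its mean level over the 6 WT libraries (TMM-scaled CPM, log axis) and by its log2 fold change from GV to MII, with dotted lines at 2-fold. Red points (4014) are higher and blue points (4595) lower in eggs at an adjusted p under 0.05; blue points reach far below the lower dotted line except among the most abundant genes, and red points mostly stay within 2-fold. The lowest diagonal streaks are genes at or near 0 counts in eggs, 69 of the lower calls being at 0 in all 3 egg libraries, where the fitted value is no measure of size.

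Cytosolic ribosomal protein mRNAs, which encode the structural proteins of the translating ribosome, fell in large part. Of 92 genes listed 90 were tested, and 83 fell, 75 of them by more than 2-fold, while 2 rose and 5 did not pass. Their median log2 fold change was -2.74 (-2.94 with library totals), beside 0.0053 over all genes tested. The summed level of the list was 5158, 4893 and 5731 CPM in the GV replicates and 1578, 1556 and 1463 CPM in the egg replicates.

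The size of the fall differed between members. Rps21 of the small subunit had the smallest p in the list. It went from 37.4, 28.7 and 33.3 CPM in GV replicates 1, 2 and 3 to 1.13, 1.34 and 1.65 CPM in eggs (log2 -4.59, SE 0.19, adjusted p = 9.76e-12). Rplp1, an acidic protein of the ribosomal stalk, fell from 69.1 ± 9.2 to 1.7 ± 0.27 CPM, Rpsa, also known as the laminin receptor, from 39.5 ± 2.2 to 0.892 ± 0.42 CPM, and Rps9 from 60.6 ± 3.9 to 2.43 ± 0.18 CPM. Rpl32 and Rpl14 of the large subunit, among the 4 smallest p values, fell less, by 2.78 and 2.59 on the log2 scale.

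A few members went the other way or stayed. Rps27l, a p53-regulated paralog of Rps27, was the clear exception. It rose from 13.4, 12 and 15.6 CPM in the GV replicates to 34.1, 29.6 and 46.1 CPM in the egg replicates (log2 1.42, SE 0.17, adjusted p = 3.86e-06). Rpl4, the member with the highest mean CPM, stood at 223 ± 6.6 CPM in GV oocytes and 256 ± 4.6 CPM in eggs (adjusted p = 0.0403 by edgeR), and its direction turned with library totals (log2 -0.0034). Members that did not pass included Rpl10 (139.7 to 95.6 CPM), Rpl29 (55.4 to 57.8 CPM), Rps15a (67.2 to 58.3 CPM) and Rpl13a (3.84 to 5.0 CPM). Ribosomal protein genes have many near-identical pseudogenes, and how reads with several matches were counted is not known here, so levels of single members are uncertain.

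Ribosomal protein mRNAs classically begin with a run of pyrimidines, the 5′ terminal oligopyrimidine tract, through which their translation responds to growth signals. The stretches below, from the RefSeq promoter table (GRCm38.p6), run from 45 bases before to 15 bases after the start given in that table, 5′ to 3′ on the gene's strand. They show 3 genes with such a run and Rps13, which fell by 6.27 on the log2 scale. Capitals mark the longest run of C and T within 5 bases before to 15 after the start. In Rps13 that run reaches the end of the stretch, so its full length is not known.
Rpl14 (chr9:120571472-120571531, + strand): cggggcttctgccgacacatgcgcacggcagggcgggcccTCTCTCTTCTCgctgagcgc
Rpl38 (chr11:114668535-114668594, + strand): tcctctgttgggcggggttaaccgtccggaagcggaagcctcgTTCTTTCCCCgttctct
Rps9 (chr7:3703996-3704055, + strand): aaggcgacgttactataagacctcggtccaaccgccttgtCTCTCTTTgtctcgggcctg
Rps13 (chr7:116334176-116334235, - strand): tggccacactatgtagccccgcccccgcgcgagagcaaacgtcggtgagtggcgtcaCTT
Runs were counted inside those bounds only, where they are 11, 10, 8 and 3 bases long. Those of Rpl14 and Rps9 reach the bound before the start. Rpl14, Rpl38 and Rps9 fell by 2.59, 5.29 and 4.64 on the log2 scale. Of genes not shown, Rpl4 and Rps27l, which were called higher, had runs of 2 and 5 bases. Rps3 and Rpsa, which fell, also had runs of 2 and 5. Where a gene had several promoters, the one with the longest run was kept. Over the 65 of 90 tested ribosomal protein genes found in that table, 29 (44.6%) had a run of at least 7 such bases, on the gene's strand, against 12.4% of 27025 genes in the table. Ribosomal protein genes with a run had a median log2 fold change of -2.96 and those without a run -2.60. Outside the ribosomal list, genes of at least 5 CPM with and without a run both had a median of 0.14. A match is a description of these letters and not of a working element.

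Nuclear genes for the respiratory chain and ATP synthase fell almost as far. Of 82 tested members 73 fell, 68 by more than 2-fold, and 0 rose, with a median log2 fold change of -2.19 (-2.39 with library totals). Cox4i1, a subunit of cytochrome oxidase, stood at 60.2, 54.2 and 64.7 CPM in the GV replicates and at 2.72, 3.52 and 3.37 CPM in the egg replicates (log2 -4.22, SE 0.16, adjusted p = 4.79e-12 by edgeR). Cox7a2l, which helps respiratory complexes join into supercomplexes, fell from 91 ± 5.9 to 7.06 ± 0.93 CPM and Sdhd, an anchor subunit of complex II, from 107 ± 1.4 to 17.1 ± 2.3 CPM. Small subunits of ATP synthase were among the largest falls of all named genes: Atp5e went from 42.2 ± 5.6 to 0.889 ± 0.24 CPM and Atp5k from 24.2 ± 1.7 to 0.743 ± 0.15 CPM. The catalytic subunit Atp5b, the member with the highest mean CPM, fell less, from 389, 414 and 404 CPM to 265, 247 and 211 CPM, by 0.74 on the log2 scale. The 9 members that did not pass included the large subunits Sdha (121 to 132 CPM) and Uqcrc2 (75.1 to 70.6 CPM).

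The mitochondrial genome's own mRNAs went in the opposite direction. All 13 rose, 12 of them by more than 2-fold, with a median log2 fold change of 1.77 (1.57 with library totals). Their share of all counts was 0.404% in GV oocytes and 0.990% in eggs. The 7 complex I mRNAs rose by 1.53 (mt-Nd5) to 2.12 (mt-Nd4l) on the log2 scale. mt-Nd4l stood at 22.5, 19 and 25.8 CPM in the GV replicates and at 86.5, 107 and 98.2 CPM in the egg replicates (adjusted p = 1.94e-07 by edgeR), and mt-Nd1 at 203, 208 and 289 and 759, 803 and 824 CPM. mt-Cytb of complex III rose by 1.57, and mt-Atp6 and mt-Atp8 of ATP synthase by 1.82 and 1.93. The cytochrome oxidase mRNAs rose least: mt-Co1, the member with the highest mean CPM, by 1.25, mt-Co2 by 1.19 and mt-Co3 by 0.67. mt-Co3 went from 90.1, 82.8 and 112 CPM to 126, 163 and 166 CPM and lost its call with library totals. The mitochondrial rRNAs mt-Rnr1 and mt-Rnr2 were higher by 0.96 and 0.65 (adjusted p = 0.00153 and 0.00363 by edgeR), and the call of mt-Rnr2 was lost with library totals. Several of these genes overlap (mt-Atp8 with mt-Atp6, mt-Nd4l with mt-Nd4), and nuclear copies of mitochondrial sequence exist, so their counts are not fully separate. GV replicate 3 was the highest GV library for 12 of the 13 mRNAs, and each egg library still lay above it for all 13.

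Other multi-subunit machines of protein synthesis and turnover fell in part. Among 76 tested mitochondrial ribosomal proteins 52 fell, 35 by more than 2-fold, and 3 rose, with a median of -0.82 (-1.02 with library totals). Mrpl14 fell from 10.3 ± 1.4 to 0.968 ± 0.096 CPM and Mrps25 from 53.4 ± 3.6 to 15.4 ± 0.39 CPM, while Mrps33, the member with the highest mean CPM, fell by only 0.41 on the log2 scale. Among 45 proteasome genes 32 fell, 19 by more than 2-fold, and 4 rose (median -0.93). The smallest p values belonged to subunits of the catalytic core. Psmb1 went from 37.6, 35.5 and 44.8 CPM in the GV replicates to 5.3, 6.1 and 3.78 CPM in eggs and Psmb4 from 77.8, 74.7 and 81.3 to 12.8, 11.1 and 7.91 CPM, with log2 fold changes of -2.96 and -2.88. The 4 that rose were the nuclear proteasome activators Psme3 (334 to 487 CPM) and Psme4 (329 to 434 CPM) and the regulatory subunits Psmd1 (113 to 173 CPM) and Psmd3 (25 to 36 CPM).

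Translation factors moved in both directions. Of 58 tested 22 fell (37.9%) and 11 rose (19.0%), beside 22.8% and 19.9% of all genes tested (list median -0.073). With library totals 32 members of the list fell and 2 rose. Eef1d, an exchange factor of elongation, went from 128, 119 and 135 CPM in the GV replicates to 27.7, 29.4 and 28.8 CPM in eggs (log2 -2.15, SE 0.083, adjusted p = 4.79e-12 by edgeR). Its partner Eef1b2 fell by 1.72, and the initiation factors Eif3e and Eif1ax by 1.61 and 1.48, on the log2 scale. The oocyte-specific cap-binding protein Eif4e1b, the member with the highest mean CPM, stood at 765 ± 21 CPM in GV oocytes and 859 ± 19 CPM in eggs (adjusted p = 0.084). Of 39 splicing factors 13 fell and 14 rose (17 and 6 with library totals), among the falls Srsf1 (71 to 33 CPM) and the U1 protein Snrpc (5.95 to 1.38 CPM).

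Somatic cells around the oocyte are a possible second source of RNA, so markers of cumulus and granulosa cells were read beside these falls. Of 29 listed markers 23 were tested; 8 fell, 2 rose and 13 did not pass. Their median log2 fold change was -2.90 (-2.31 with genes at 0 counts set to the limit of detection), below that of the ribosomal list in the first form, and for 17 of 23 every egg library lay below every GV library, beside 30.1% of all genes tested. Summed over the 23, they stood at 280 to 306 CPM in GV WT and at 345 to 357 CPM in egg libraries, and most of this was Serpine2, Nr5a2 and Cyp19a1, whose levels in eggs were 241 ± 7.5, 60.5 ± 1.5 and 36.5 ± 2.6 CPM. The other 20 were under 5 CPM in eggs, a limit chosen after their values were seen, so that a lower sum in eggs is partly built into the choice. They summed to 53.5, 39.5 and 24.5 CPM in GV replicates 1, 2 and 3 and to 12.7, 12.9 and 11.9 CPM in egg replicates. The granulosa hormone genes Inhbb, Hsd17b1 and Amh had 0 counts in all WT egg libraries, and Inhbb stood at 2.84, 3.46 and 1.17 CPM in the GV WT replicates. In MII Null replicate 4 all 20 low markers had counts. In bulk samples, fewer cells of a type and less RNA per cell cannot be told apart. Among the GV WT libraries replicate 3, the lowest in markers, had the highest ribosomal sum. In the GV Null libraries all 23 markers summed to 296, 900.2 and 467 CPM, the low 20 to 26.3, 598 and 192 CPM, the ribosomal list to 5374, 6144 and 6170 CPM and the respiratory list to 3085, 3013 and 3015 CPM, so there the library lowest in markers had the lowest ribosomal sum. The part of these markers' cells in the falls was not tested. Of 11 tested markers of blood, immune and stromal cells, Pecam1 alone passed, at 69.3 ± 3.1 CPM in GV oocytes and 89.2 ± 2.2 CPM in eggs, and that call was lost with library totals.

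**Figure D2:**
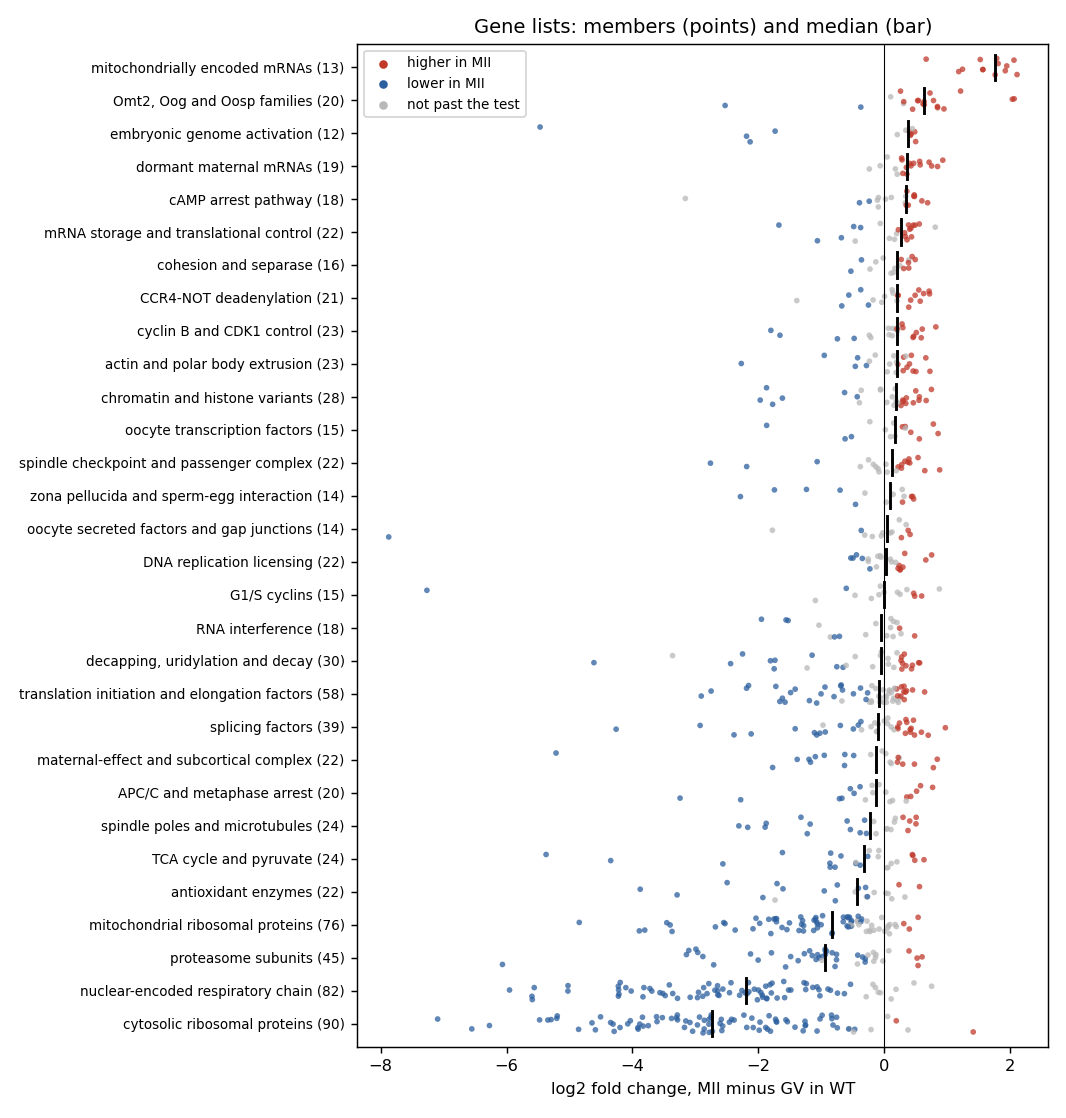
Each point is 1 tested gene of a list (number tested in parentheses), placed by its log2 fold change from GV to MII in WT, red where higher and blue where lower at an adjusted p under 0.05 and grey otherwise; the black bar is the median of the list. Of the lists plotted, ribosomal proteins and the nuclear-encoded respiratory chain lie furthest left, with medians of -2.74 and -2.19, and mitochondrially encoded mRNAs furthest right, with a median of 1.77; with library totals all lists move left by about 0.20, which turns the medians of the checkpoint, actin, zona, secreted factor, transcription factor, chromatin and replication lists and of G1/S cyclins below 0.

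Dormant maternal mRNAs, those known to be stored and translated during maturation, rose or did not pass the test. Of 19 tested 14 rose and 0 fell, with a median log2 fold change of 0.37; with library totals 10 rose, 1 fell and the median was 0.17. Btg4, the adaptor that brings CCR4-NOT to maternal mRNAs, stood at 704, 776 and 789.8 CPM in the GV replicates and at 1272, 1159 and 1306 CPM in the egg replicates (log2 0.72, SE 0.089, adjusted p = 3.25e-06 by edgeR). Orc6, of the replication origin complex, rose from 66.9 ± 1.9 to 113 ± 6.3 CPM, Oosp1, an oocyte secreted protein, from 752 ± 75 to 1359 ± 27 CPM, and Dazl, an RNA-binding activator of translation, from 374 ± 11 to 504 ± 12 CPM. Spin1, the member with the highest mean CPM, rose from 8151, 8152 and 8354 CPM to 10501, 10621 and 10650.2 CPM. The 5 that did not pass were Mos (183 to 156 CPM), the kinase that upholds metaphase arrest, Plat (1512 to 1751 CPM), Bub1b (1369.7 to 1420.0 CPM), Tpx2 (232 to 264 CPM) and Cdc6 (64.2 to 61.6 CPM).

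Genes of mRNA removal included both rises and falls. Of 21 deadenylation genes 10 rose and 4 fell, none by more than 2-fold (median 0.21; 0.0082 with library totals). Besides Btg4, the scaffold-binding subunit Cnot3 went from 433, 411 and 404 CPM in GV oocytes to 698, 651 and 715 CPM in eggs, and the catalytic subunit Cnot7 from 360.3, 368 and 337 to 516, 517 and 558 CPM. Cnot6l, another catalytic subunit, rose from 753 ± 1.5 to 989.7 ± 13 CPM. In the next step, decapping and decay, 10 of 30 genes rose and 9 fell (3 and 13 with library totals). The decapping cofactor Dcp1a, the member with the highest mean CPM, rose from 1898 ± 20.1 to 2815 ± 85 CPM and the decapping enzyme Dcp2 from 247 ± 14 to 301 ± 9.9 CPM. The falls were in small ring proteins of the Lsm complex (Lsm4, Lsm7, Lsm5, Lsm6 and Lsm3) and in exosome subunits. Lsm4 fell from 13.5, 13.5 and 17.1 CPM to 0.464, 0.931 and 0.413 CPM (log2 -4.61, adjusted p = 9.74e-08 by edgeR), whereas Lsm1 and Lsm2 stood at 11.4 to 13.2 and 45.9 to 44.7 CPM and did not pass.

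Among 22 mRNA storage and translational control genes 11 rose (50%) and 5 fell (22.7%), with a median of 0.28. Of all genes tested 19.9% and 22.8% did so, and of protein-coding genes of at least 5 CPM 34.7% and 22.5%. With library totals 6 members of the list rose and 7 fell. Cpeb1 (chr7:81347026-81458001), which binds the cytoplasmic polyadenylation element and both represses and later activates dormant mRNAs, had the largest fall. It stood at 859, 825 and 877 CPM in the GV replicates and at 259.9, 299 and 246 CPM in the egg replicates (log2 -1.67, SE 0.11, adjusted p = 3.03e-09 by edgeR). Its relative Cpeb4 rose from 163, 163 and 164 CPM to 217, 225 and 222 CPM, and the stages did not overlap for either gene. Zar1l and Zar1, which hold maternal mRNA in storage, fell from 135 ± 3.7 to 65 ± 1.7 and from 439.6 ± 11 to 315 ± 20.2 CPM. The mRNA-packaging proteins Ybx2 and Ybx3 rose from 116 ± 3.3 to 164 ± 14 and from 379.6 ± 2.8 to 561 ± 22 CPM.

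Genes that drive entry into and exit from metaphase changed by member rather than as a group. Of 23 cyclin B and CDK1 control genes 9 rose and 4 fell (median 0.21), and with library totals 5 rose and 5 fell. The kinase mRNA Cdk1 fell from 60.1, 57.1 and 64.8 CPM in the GV replicates to 15.2, 19.4 and 17.8 CPM in eggs (log2 -1.80, SE 0.099, adjusted p = 1.75e-10 by edgeR). Its cyclins and small partners rose: Ccnb1 from 690.3 ± 17 to 843 ± 67 CPM, Ccna2 from 153 ± 5.5 to 234 ± 4.2 CPM and Cks1b from 47.5 ± 3.3 to 84.3 ± 4.1 CPM. Wee2, the oocyte kinase that inhibits CDK1, rose from 786, 791 and 795 CPM to 1102, 1099 and 1091 CPM. Ensa, an inhibitor of the phosphatase that opposes CDK1, fell from 19.6 ± 0.36 to 6.22 ± 0.62 CPM, while its paralog Arpp19 stood at 149 to 164 CPM and did not pass.

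Of 20 genes of the anaphase-promoting complex (APC/C) and metaphase arrest 7 fell (35%) and 5 rose (25%), with a median of -0.13. Of all genes tested 22.8% fell and 19.9% rose, and of protein-coding genes of at least 5 CPM 22.5% fell and 34.7% rose. The inhibitors of this ubiquitin ligase parted. Fbxo43 (Emi2), which keeps eggs arrested at metaphase II, rose from 181, 188 and 183 CPM to 270.2, 263 and 259 CPM, and Fbxo5 (Emi1) fell from 60.1, 62.2 and 67.7 CPM to 38, 42.5 and 39.1 CPM. The RING subunit Anapc11 fell from 28.3 ± 2.0 to 5.82 ± 1.5 CPM, and Cdc27, the member with the highest mean CPM, stood at 551 to 589.6 CPM (adjusted p = 0.248 by edgeR).

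Of 22 spindle checkpoint and chromosomal passenger genes 10 rose and 3 fell (median 0.12), and with library totals 5 rose and 9 fell (median -0.077). Birc5 (survivin, chr11:117849237-117855743), a passenger complex subunit, fell from 323, 305 and 348 CPM in the GV replicates to 75, 71.2 and 69.1 CPM in the egg replicates (log2 -2.18, SE 0.11, adjusted p = 1.19e-10 by edgeR). The kinases of that complex, Aurkb (20.1 to 31.6 CPM) and Aurkc (72.7 to 88.5 CPM), and its member Cdca8 (114 to 150.0 CPM) rose. Spc24 and Spc25, which form one end of the NDC80 kinetochore complex, fell by 2.76 and 1.06 on the log2 scale, while Nuf2 and Ndc80, at the other end, rose by 0.33 and 0.23. Among 16 cohesion genes 6 rose and 2 fell (2 and 3 with library totals). Sgo1, a protector of centromeric cohesion, rose from 78.9 ± 1.9 to 111 ± 3.7 CPM, and Pttg1 (securin), the inhibitor of separase, fell from 456 ± 55 to 317 ± 9.1 CPM.

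Tubulin and spindle pole mRNAs fell more often than they rose, 12 against 5 of 24 (median -0.22). Tacc3, which stabilizes spindle microtubules, fell from 751, 754 and 775 CPM to 331, 334 and 347 CPM (log2 -1.17, adjusted p = 1.57e-09 by edgeR). Tubb2b fell from 247 ± 11 to 99.1 ± 16 CPM and the microtubule destabilizer Stmn1 from 29.1 ± 0.95 to 6.48 ± 0.68 CPM. Tuba1a, Tuba1b and Tuba1c fell by 2.31, 1.89 and 1.87 on the log2 scale, but their coding sequences are near copies and reads may be split among them. Of 23 actin and polar body genes 10 rose and 5 fell (median 0.20), and with library totals 5 rose and 7 fell. The actin nucleators that move the meiotic spindle to the cortex rose, Fmn2 from 436, 442 and 444 CPM to 619, 649.9 and 614 CPM and Spire1 from 386, 388 and 389 CPM to 523, 496 and 524 CPM. Arpc3, a subunit of the Arp2/3 complex, fell from 66.4 ± 6.7 to 13.8 ± 2.0 CPM.

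**Figure D3:**
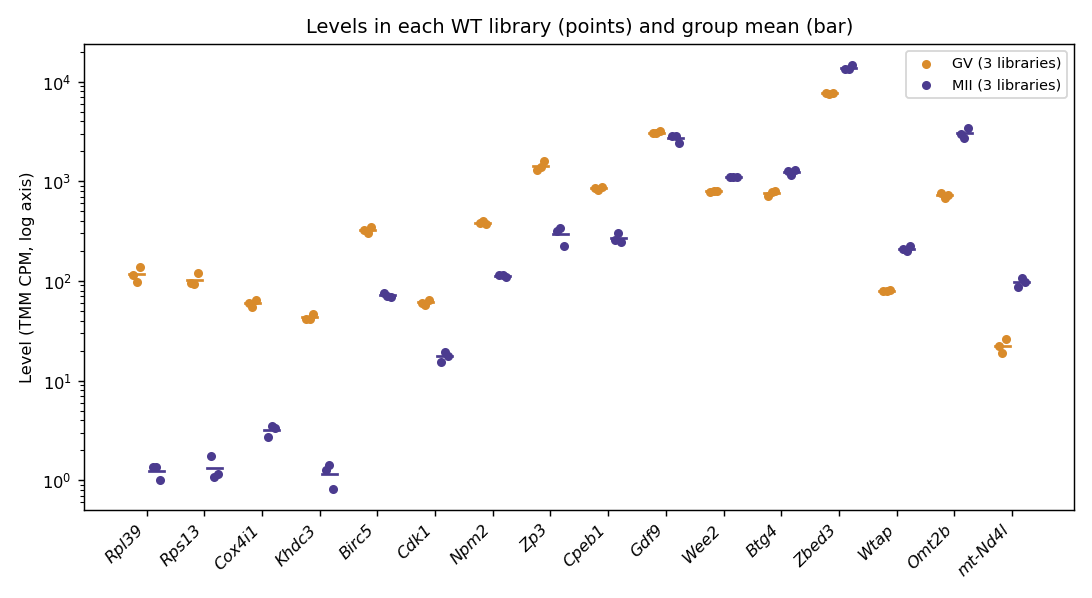
Points are the 3 GV (orange) and 3 MII (purple) WT libraries and bars the group means, in TMM-scaled CPM on a log axis, for 16 genes named in the text. The stages do not overlap for any of them, and Gdf9, which did not pass the test, comes closest, with libraries at 3017 (GV) and 2870 CPM (MII); levels are not corrected for transcript length, so heights compare stages of a gene and not genes with each other.

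Maternal-effect mRNAs, whose proteins the embryo needs from the egg, included some of the most abundant transcripts and some of the largest falls. Of 22 tested 10 fell, 6 by more than 2-fold, and 6 rose (median -0.12). Khdc3 (Filia, chr9:73101381-73106631), a member of the subcortical maternal complex, stood at 41.7, 41.1 and 46.6 CPM in the GV replicates and at 1.26, 1.41 and 0.826 CPM in the egg replicates (log2 -5.21, SE 0.69, adjusted p = 0.000181 by edgeR). Other members of that complex fell less, Tle6 from 524 ± 22 to 339.7 ± 49 CPM and Padi6 from 1507 ± 109 to 979.9 ± 82 CPM, and Ooep and Nlrp5 stood at 1122 to 1202 and 1265 to 1094 CPM and did not pass. Zbed3, also tied to the complex and the member with the highest mean CPM, rose from 7678, 7497 and 7744 CPM to 13266, 13403 and 14595 CPM.

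Factors that act on the parental genomes after fertilization also parted. Npm2, which opens sperm chromatin, fell from 383, 395 and 372 CPM to 115, 113 and 109 CPM (log2 -1.77, SE 0.072, adjusted p = 6.72e-12 by edgeR). Dppa3 (Stella), which shields the maternal genome from demethylation, fell from 1132, 1078 and 1119 CPM to 414, 400.1 and 466 CPM. The maintenance DNA methyltransferase Dnmt1 fell from 3024 ± 148 to 1568 ± 133 CPM and the cofactor Dnmt3l from 63.5 ± 0.64 to 28.3 ± 3.6 CPM. The dioxygenase Tet3, which oxidizes 5-methylcytosine in the zygote, rose from 2884 ± 38 to 4039.6 ± 115 CPM, and the imprint protector Zfp57 from 1622 ± 29.97 to 2797 ± 65 CPM. Nlrp14 fell from 3332 ± 99 to 1459 ± 173 CPM. In the wider chromatin list of 28 genes 11 rose (39.3%) and 6 fell (21.4%), and with library totals 6 rose and 8 fell. Of protein-coding genes of at least 5 CPM 34.7% rose and 22.5% fell. Within the list the oocyte linker histone H1foo rose from 941 ± 18 to 1337 ± 122 CPM and the histone variant H2afx fell from 97.8 ± 8.8 to 26.8 ± 4.5 CPM.

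The oocyte-restricted gene families on the list used here mostly rose. Other families with oocyte-expressed members did not. Among members of at least 5 CPM, 15 of 23 Fbxw genes fell and 1 rose, and of 12 Nlrp genes 4 rose and 3 fell. Of 20 tested members of the Omt2, Oog, Oosp, Tcl1 and Obox families 16 rose (80.0%) and 2 fell, with a median log2 fold change of 0.63. Rises made up 19.9% of all genes tested, and 3609 of 10823 genes of at least 5 CPM. With library totals 14 members still rose. The Tcl1 cluster on chromosome 12 rose throughout its 6 tested members, Tcl1 from 309.6, 295 and 339 CPM to 692, 741 and 765 CPM (log2 1.22, SE 0.077, adjusted p = 9.22e-10 by edgeR) and Tcl1b1 to Tcl1b5 by 0.55 (Tcl1b4) to 0.85 (Tcl1b1). The homeobox genes Obox1, Obox2 and Obox5 rose by 0.62, 0.64 and 0.54. The Oosp genes on chromosome 19 did not move together. Oosp1 and Oosp3 rose by 0.85 and 0.96, while Oosp2 (chr19:11647284-11660559), in the same cluster, went from 191, 186 and 225 CPM to 34.8, 35.3 and 34.5 CPM (log2 -2.52, adjusted p = 3.85e-09). Many members of these families are near copies, so reads may be shared among them.

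The egg coat and its receptors gave a similar split. Of 14 tested zona and sperm-egg interaction genes 5 fell and 4 rose (6 and 2 with library totals). Zp3 (chr5:135980105-135988624) and Zp2 encode glycoproteins of the zona pellucida. Zp3 went from 1301, 1378 and 1612 CPM to 318, 342 and 223 CPM (log2 -2.28, SE 0.23, adjusted p = 1.17e-05 by edgeR) and Zp2 from 1142, 1176 and 1238 CPM to 359, 384 and 321 CPM, while Zp1 stood at 835 ± 57 and 677 ± 117 CPM and did not pass. Astl (ovastacin), the cortical granule protease that cleaves ZP2 after fertilization, fell from 218 ± 18 to 92.9 ± 21 CPM, and the fusion factor Cd9 from 35.4 ± 3.6 to 21.9 ± 2.3 CPM. The sperm receptor gene Izumo1r (Juno) rose from 97.2 ± 11 to 135 ± 3.8 CPM and the calcium channel gene Cacna1h from 76.3 ± 4.7 to 105 ± 3.5 CPM.

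Of 14 genes for secreted factors and gap junctions between oocyte and follicle 3 rose (21.4%), 2 fell (14.3%) and 9 did not pass. Of all genes tested 19.9% rose and 22.8% fell, and of protein-coding genes of at least 5 CPM 34.7% rose and 22.5% fell. With library totals 2 members rose and 6 fell. Gja4 (connexin 37), through which the oocyte couples to cumulus cells, fell from 307, 310.1 and 331 CPM to 252, 275 and 211 CPM. Gja1, the connexin of granulosa cells and a marker counted above, had 3.4 ± 1.4 CPM in GV oocytes and a single count over the 3 egg libraries. Of 18 genes of the cAMP pathway that holds prophase arrest 8 rose and 2 fell (6 and 3 with library totals; median 0.34). Gpr3, the receptor that keeps cAMP high, rose from 91.1, 88.9 and 98.4 CPM to 145, 143 and 135 CPM, and Pde3a, the phosphodiesterase that IBMX inhibits, stood at 547 ± 8.3 and 594 ± 38 CPM (adjusted p = 0.258 by edgeR). Of 15 oocyte transcription factors 6 rose and 3 fell (4 and 4 with library totals), with Hsf1 rising from 110.4 ± 7.3 to 191 ± 13 CPM and Figla, an activator of zona genes, falling from 8.06 ± 0.66 to 2.21 ± 0.33 CPM.

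In 2 further lists of metabolic enzymes, falls outnumbered rises. The TCA list is not wholly apart from the respiratory chain, since it holds Sdhb, a complex II subunit (11.4 to 1.93 CPM). In the TCA cycle and pyruvate list 12 of 24 fell and 4 rose (median -0.32). Ldhb, the lactate dehydrogenase that lets oocytes use lactate, fell from 1853, 1839 and 1966 CPM to 1082, 996 and 1043 CPM, and Cs, citrate synthase, rose from 374, 375 and 364 CPM to 582, 563 and 584 CPM (adjusted p = 9.84e-09 and 4.71e-07 by edgeR). Of 22 antioxidant enzymes 12 fell and 2 rose (median -0.43). Glrx5, a mitochondrial glutaredoxin of iron-sulfur assembly, fell from 125, 109.5 and 128 CPM to 12.8, 11.9 and 12.4 CPM, and Gpx4, which reduces lipid peroxides, from 5.4 ± 0.70 to 0.366 ± 0.097 CPM. Sod1, the member with the highest mean CPM, stood at 655, 639.6 and 703 and 717, 777 and 1024 CPM and did not pass, with egg replicate 3 above the other libraries. In the RNA interference list 5 of 18 fell (27.8%) and 2 rose (11.1%), beside 22.8% and 19.9% of all genes tested. Of protein-coding genes of at least 5 CPM 22.5% fell and 34.7% rose. With library totals 7 members of the list fell and 0 rose. Among the falls were the partners Tsn and Tsnax, subunits of the nuclease C3PO (34.4 to 11.7 and 106 to 37 CPM), while Dicer1 stood at 906 to 979 CPM.

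Genes that prepare the next S phase and the embryo showed mostly small changes, with Ccnd2 as the largest. Of 22 replication licensing genes 8 rose (36.4%) and 5 fell (22.7%), none by more than 2-fold, beside 19.9% and 22.8% of all genes tested. Both shares were near those of protein-coding genes of at least 5 CPM, 34.7% and 22.5%. With library totals 2 licensing genes rose and 11 fell. Gmnn (geminin), which blocks licensing, rose from 22.7 ± 1.9 to 36.1 ± 4.7 CPM, and its target Cdt1 fell from 96 ± 6.7 to 68.3 ± 4.1 CPM. Of 15 G1/S genes 3 rose (20%) and 2 fell (13.3%), so the share of rises was near that of all genes tested. Ccnd2, cyclin D2, is also made by granulosa cells. It varied among GV libraries (44.1, 86.6 and 54.5 CPM in replicates 1, 2 and 3), in which the 20 low cumulus markers summed to 53.5, 39.5 and 24.5 CPM. In eggs Ccnd2 was at 0.497, 0.517 and 0.191 CPM (log2 -7.27, SE 0.92, adjusted p = 0.000156 by edgeR). In GV Null replicate 2, with a marker sum of 598 CPM, Ccnd2 stood at 60.4 CPM. MII Null replicate 4, the egg library with the highest sum of the low markers (34.2 CPM), also had the highest Ccnd2 among eggs, 3.39 CPM against 0.0700 to 0.517 CPM in the others. Which cells the Ccnd2 reads came from was not tested and cannot be told apart in bulk samples. Of 12 tested genes known for early embryonic expression 5 rose and 4 fell. All 5 rises were Zscan4 genes, near copies of each other, and none of them passed with library totals. The falls included Tcstv1, from 22.9 ± 0.44 to 6.92 ± 0.56 CPM.

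Among named genes of at least 20 CPM, the largest rises outside the oocyte families listed above and mitochondria were in genes of varied function. Clone-like and pseudogene names were left out of this choice. Over all genes tested, 41 were called higher with a log2 fold change above 2. Wtap, a subunit of the RNA m6A methyltransferase, rose from 78.7, 79 and 81.6 CPM to 210.2, 200.3 and 223 CPM (log2 1.40, SE 0.094, adjusted p = 1.97e-09 by edgeR). Magoh, of the exon junction complex, rose from 49.2 ± 4.1 to 115 ± 11 CPM, and the AU-rich element binding protein Khsrp from 137 ± 11 to 298 ± 25 CPM. Fubp3, a single-strand nucleic acid binding protein related to Khsrp, rose from 20.7 ± 1.4 to 55.7 ± 4.7 CPM. Smco4 and Fam241b, predicted membrane proteins, rose by 1.55 and 1.46, and Smim11, Tmem128, Tgds and Faap24 by 1.39, 1.32, 1.24 and 1.21 on the log2 scale. For each of these 10 genes every egg library lay above every GV library, as the rule by which they were named required.

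Of the 10 genes with the most reads, 6 were shared by both stages. These were mt-Rnr2, mt-Rnr1, Spin1, Zbed3, CT010467.1 and Mdm4, a p53 regulator, by CPM that is not corrected for transcript length. Nlrp14, Dnmt1, Elobl and Gdf9 were among the first 10 only in GV oocytes, and genes among them only in eggs included mt-Co1, Tet3 and the gene whose promoter was removed in the Null mice, C86187 (Sirena1). Mdm4 rose from 3925, 3921 and 3817 CPM to 5262, 5329.8 and 5517 CPM. Elobl, an oocyte Elongin B paralog, stood at 3584, 3567 and 3712 and 3353, 3238 and 2328 CPM (adjusted p = 0.263 by edgeR), with egg replicate 3 below the other libraries.

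Falls were more frequent among genes with a short span on the genome. The span from start to end in the RefSeq annotation was known for 10222 of 10823 genes with at least 5 CPM. In the shortest 20% of genes (86 to 5786 bp) 32.1% fell by more than 2-fold and the median log2 fold change was -0.16, and in the longest 20% the values were 2.10% and 0.23. Among protein-coding genes alone the share went from 24.6% to 2.04%. With the ribosomal, respiratory, mitochondrial ribosomal and proteasome lists left out as well, it still went from 18.2% to 1.75%. Among 8811 protein-coding genes 22.5% fell and 34.7% rose, and among 1058 genes annotated as pseudogenes 44.4% fell and 21.8% rose. Span includes introns and is not transcript length, which was not analysed here, and these shares carry no test.

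**Figure D4:**
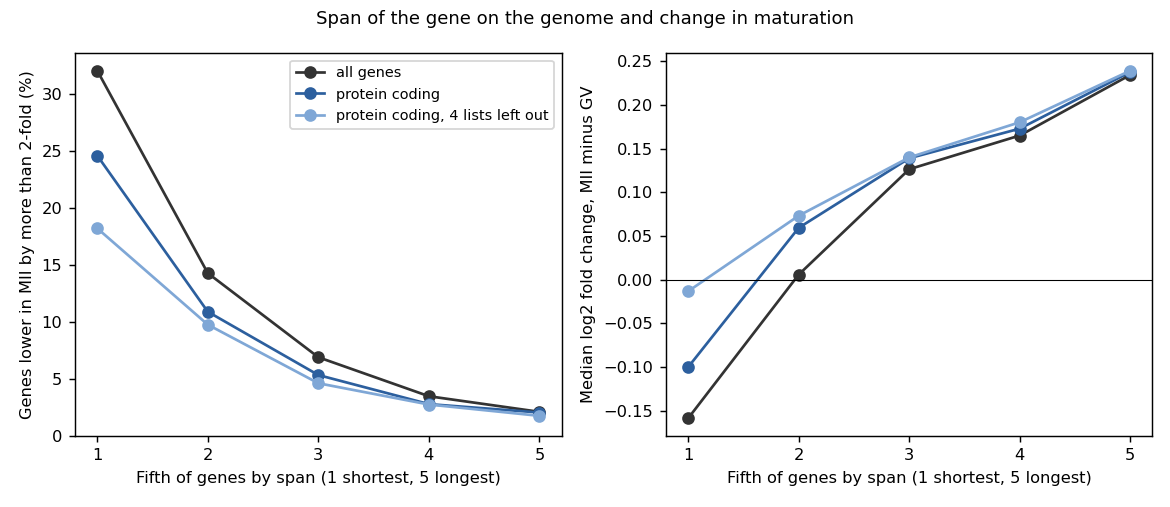
Genes with at least 5 CPM at a WT stage were put in order of their span on the genome and divided into 5 equal groups, shortest on the left. The left panel gives the percentage that fell by more than 2-fold and the right panel the median log2 fold change, for all genes, protein-coding genes, and protein-coding genes without the 4 lists of ribosomal, respiratory, mitochondrial ribosomal and proteasome genes; on the left all 3 lines end lower than they start, for all genes from 32.1% to 2.10%.

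The 7 Null libraries allowed the same comparison with no shared sample, but within the same model. WT and Null calls therefore share the filter, the scaling and each gene's estimate of spread. C86187 (Sirena1) had 888 to 1708 counts in each Null library and 120302 to 144707 in each WT library, which fits the labels. In Null 9867 genes passed, 4456 (22.1%) higher and 5411 (26.9%) lower in eggs. Of the 8609 WT calls 8532 (99.1%) had the same sign in Null, and 7467 were also called in that direction, which is 86.7% of WT calls and 75.7% of Null calls; 1 was called in the opposite direction. Of WT falls over 2-fold 92.1% were also called lower in Null, and of WT rises over 2-fold 48.6% were called higher. Across the 10823 genes of at least 5 CPM the log2 fold changes correlated with Pearson r = 0.975 and Spearman rho = 0.924, given as a description since genes are not replicates and both contrasts share annotation and scaling.

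Gene groups repeated as well. In Null 84 of 90 ribosomal protein genes and 74 of 82 respiratory chain genes fell, all 13 mitochondrially encoded mRNAs rose, and 16 of 20 members of the oocyte families rose. For single genes the log2 fold changes in WT and Null were -1.67 and -1.57 for Cpeb1, -5.21 and -3.92 for Khdc3, -2.28 and -2.24 for Zp3, 0.72 and 0.88 for Btg4 and 1.40 and 1.28 for Wtap. The 1296 genes that fell by more than 2-fold at 5 CPM or above had medians of -1.82 in WT and -1.77 in Null, and 902 of them fell less in Null. Because these genes were chosen on the WT values, a smaller size in Null is built into the choice. The Null groups hold 3 libraries that stand apart, GV replicates 2 and 3 with high cumulus markers (598 and 192 CPM for the 20 low markers) and MII replicate 4 (34.2 CPM against 9.77 to 12.0 in the other Null egg libraries); without them 6591 genes passed in Null. A direct test of the difference in maturation between genotypes found 1 of 20143 genes (0.00496%), with 681 at an unadjusted p under 0.05 by edgeR.

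**Figure D5:**
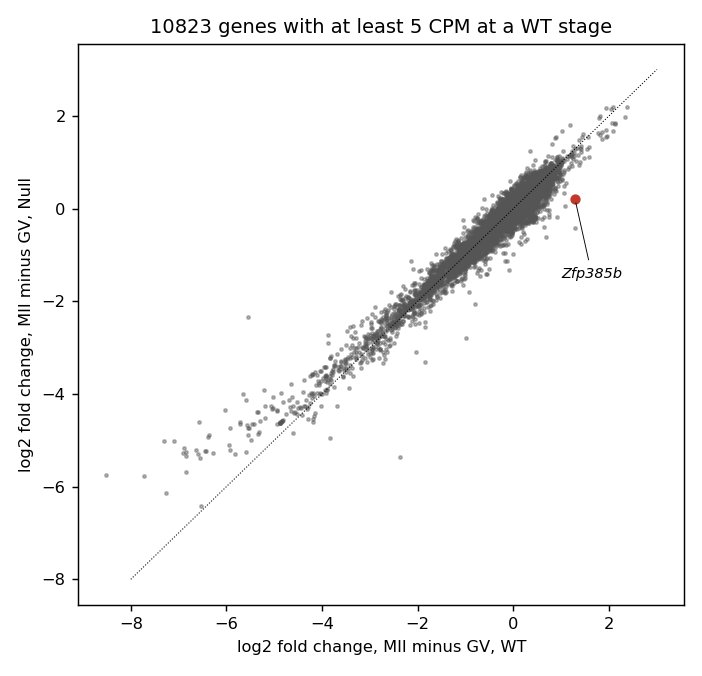
Each point is 1 of 10823 genes with at least 5 CPM at a WT stage, placed by its log2 fold change from GV to MII in WT (horizontal) and in Null (vertical), with the dotted line where both are equal. Points follow the line (Pearson r = 0.975), and the red point, Zfp385b, is the gene past the test of the difference, at 1.29 in WT and 0.20 in Null.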

How the data were processed

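The authors deposited raw read counts per gene (Ensembl release 93) for 13 libraries of 65 bp single-end reads, and per the file headers each column is a library; per the labels, RNA from 25 cells was amplified with the Ovation RNA-Seq system V2. The submitters' processing notes name STAR 2.5.3a, bedtools 2.26.0 and GRCm38.p6; the counting tool, strand setting and treatment of multiply mapping reads were not given in the sources used here. Of 54232 genes, 14637 had no count, and 54079 IDs had a symbol in the table of names.

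The main test used edgeR 4.0.16 under R 4.3.3 (TMM scaling, filterByExpr by group, glmQLFit robust, glmQLFTest, two-sided) in 1 model of all 13 libraries with 4 groups, and p-values were adjusted by Benjamini-Hochberg over all 20143 genes tested, with a threshold of 0.05. The code was tested on simulated data. Replicates of a stage differed by more than counting error (chi-square per degree of freedom 5.03 to 12.1). Intervals of counting alone do not apply to amplified reads. Coordinates, spans and promoter sequences are from RefSeq (GRCm38.p6).

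The comparison and its 34 gene lists were chosen with earlier results of these data known. Named were the 15 largest changes per direction of at least 20 CPM with no overlap, leaving out clone-like, pseudogene and mitochondrial names, the 10 most abundant genes per stage, up to 4 members of each list with the smallest p and its most abundant member, the mitochondrially encoded genes, and 3 abundant pseudogenes or Gm genes per direction; other list members were named after their values were seen. Alternatives were RLE scaling, library totals, other filters, DESeq2 1.42.0, fewer libraries, a replicate block and a minimum of 1.5-fold.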

Additional observations from a re-analysis of the deposited data

Results flagged for a closer look

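Zfp385b, a zinc finger gene, was the only gene whose change in maturation differed between genotypes by a direct test (log2 difference, Null minus WT, -1.09, edgeR adjusted p = 0.0406). In WT it rose from 8.62, 9.1 and 7.68 CPM in GV replicates 1, 2 and 3 to 18.5, 21.2 and 22.4 CPM in the egg replicates (log2 1.29, SE 0.12), with no overlap, and in Null its log2 fold change was 0.20. The call of the difference was kept in 1 of 6 fits that leave out a WT library, the fit without MII WT replicate 1, and was lost with RLE scaling and without the 3 Null libraries that stand apart.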

How the results depend on the processing

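The count of 8609 genes stayed within 1.5 times under RLE scaling (8463), library totals (7729), no filter on low counts (8840), a filter of 5 CPM (6024), DESeq2 (8613), the 6 WT libraries alone (9745), and without mitochondrially encoded genes (8576) or the 3 Null libraries that stand apart (9349). A test against a minimum of 1.5-fold left 2707 genes, 193 higher and 2514 lower. Leaving out each WT library gave 7274 to 7529 calls in WT, 9750 to 10044 in Null and 0 to 1 for the difference. In Null, the filter of 5 CPM gave 6456 calls and the minimum of 1.5-fold 3230. For the difference, RLE scaling, the minimum of 1.5-fold and leaving out the 3 Null libraries gave 0 calls, DESeq2 gave 2 and no filter 157. No pairing by replicate number was seen (correlations of same-numbered deviations -0.016, 0.0026 and 0.011), and no sample correlated best with its own number. Correlations between different numbers were as small, from -0.073 to 0.079. Whether samples with the same number share a female or a batch is therefore not known. A replicate block on the 6 WT libraries gave 9562 calls against 9745 without it.

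Of 195 named genes 181 passed. Rpl4 turned to a log2 fold change of -0.0034 with library totals, and Cdkn1b, Cyp19a1, Kit, mt-Co3, mt-Rnr2, Myo5b, Nipbl, Pecam1, Sf3b1 and Smc1b lost their calls there. Rpl4 and Sf3b1 also lost theirs with RLE scaling, no filter, the filter of 5 CPM and DESeq2, and Kit with the filter of 5 CPM. Leaving out any 1 WT library ended the call of Rpl4, and in several of these fits that of Sf3b1, Kit or Gja4. The minimum of 1.5-fold ended 67 calls, among them Btg4, Wee2, Cnot3, Fmn2, Dazl, mt-Rnr1 and Tet3. The egg libraries are shallower than the GV libraries, so genes near 0.0727 to 0.0965 CPM, the worth of 3 counts, could not be followed into eggs.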

Other observations

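Gene families that share a symbol stem, grouped after the data were seen and limited to members of at least 5 CPM, differed in direction beyond the lists above; of all 10823 such genes 3609 rose and 2697 fell, with a median log2 fold change of 0.12. Nudt hydrolases, which cleave nucleoside diphosphate derivatives, fell in 8 of 10 members with 0 rises (median log2 fold change -1.01). The Timm genes of mitochondrial protein import fell in 8 of 12 and rose in 2 (median -0.57), and RNA polymerase subunit genes (Polr) fell in 13 of 24 and rose in 1 (median -0.48). The Fbxw genes, many of which form an oocyte-expressed cluster of near copies, fell in 15 of 23 and rose in 1 (median -0.42). Rises outnumbered falls among Atf transcription factors (7 of 8, 0 falls, median 0.40), myosins (9 of 15, 0 falls), ubiquitin-specific proteases (20 of 45, 3 falls, median 0.25), Mediator subunits (14 of 27, 4 falls, median 0.26) and Zfp zinc finger genes (97 of 223, 16 falls, median 0.27). With library totals each of these medians would be lower by about 0.20. The stems were not tested as sets.

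Among abundant pseudogenes and Gm genes, Gm1821 fell from 994, 963 and 1104 CPM in the GV replicates to 185, 197 and 206 CPM in the egg replicates, and Gm36958 from 825 ± 18 to 404 ± 33 CPM. Gm6205, Gm6367 and Gm1965 rose from 1601 ± 62 to 2235 ± 83, from 1659 ± 67 to 2335 ± 88 and from 1281 ± 88 to 2146 ± 69 CPM. Reads of near copies elsewhere were not separated here.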
